A study of Mus musculus with 7 samples.

Results

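The expression of 10 growth factor receptors and ligands was followed in differentiating C2C12 cells, a line of mouse myoblasts that exit the cell cycle and fuse into myotubes when serum is lowered. The receptors were Fgfr1, Fgfr4, Pdgfra, Pdgfrb, Egfr and Met, and the ligands were Fgf2, Pdgfa, Hgf and Vegfa. They were chosen by name, as the rows of the expression table whose gene symbol is, or whose joined symbols include, that of a listed gene, and each of the 10 had 1 row among the 11642 rows of the table. All 10 rows were above the filter on low values. Total RNA depleted of ribosomal RNA was sequenced at day 2 of differentiation from 2 samples transfected with a scramble siRNA (si-SCR) and 2 transfected with siRNA #1 against the long non-coding RNA lnc-SMaRT (si-SMaRT), and the comparison asks how gene expression differs when lnc-SMaRT is depleted. The study speaks of 2 independent populations of cells for this comparison. Only 1 of its siRNAs was sequenced, so in these libraries the sequence of the siRNA and the depletion of lnc-SMaRT cannot be told apart. For selected genes the study used qPCR with 2 siRNAs. It reported Mef2c, Mck, dystrophin, Lrrn1, Tnnc2 and Crabp2 as lower, Ccl2 and Ccl7 as higher, and MyoD and Myog as not affected. The remaining libraries of the series were RNA pulled down with probes against lnc-SMaRT or LacZ and an input, with 1 library each. All levels are given in RPKM, the reads of a gene per kilobase of its length and scaled to sequencing depth, so that levels of different genes are compared per length.

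Growth factor receptors of this kind are receptor tyrosine kinases. Binding of a ligand pairs the receptors, which phosphorylate each other and recruit adaptors such as Grb2 that start the Ras-ERK and PI3K cascades, while Sprouty and DUSP proteins act as feedback inhibitors. In muscle, FGF and HGF signals keep myoblasts cycling and hold back differentiation, HGF wakes quiescent satellite cells through Met, and PDGF receptors mark mesenchymal and perivascular cells as well as some myoblasts.

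Lnc-SMaRT itself (chrX:12339782-12354996, minus strand, annotated as a lincRNA) was at 19.1 and 15.9 RPKM in si-SCR 1 and 2 and at 2.88 and 3.65 RPKM in si-SMaRT 1 and 2. The log2 fold change was -2.39 ± 0.28 (SE), with an adjusted p of 0.000882 (limma, Benjamini-Hochberg). The samples held between 10936123 and 14254229 reads on the rows of the table. Of 10 genes of differentiating muscle, all 10 had a row. Their summed level was between 11110 and 11170 RPKM in si-SCR and between 5169 and 7686 RPKM in si-SMaRT. On the deposited values none of them passed the test by itself, and Myod1 alone had a positive log2 fold change (0.26), with overlapping groups. With the GC trend taken out, as described below, Ckm, Mef2c and Tnnc2 passed as lower (adjusted p 0.0213, 0.0213 and 0.0399, limma), where 5.67% of all rows passed. Of 8 genes of undifferentiated or cycling myoblasts, 7 had a row (Pax7 had none), with sums between 134.3 and 158.9 RPKM in si-SCR and between 152.6 and 199.9 RPKM in si-SMaRT, and only Id3 passed the test. The cells therefore carried the RNA of differentiating muscle as well as of cycling myoblasts, and in bulk RNA a change in the share of either cell state and a change of RNA per cell cannot be told apart. None of the 5 endothelial and 3 hepatocyte markers had a row, and the 2 of 6 macrophage markers with a row summed to between 1.141 and 1.627 RPKM.

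Promoter sequence was available in RefSeq (GRCm38.p6) for 8 of the 10 genes, and Fgfr1 and Pdgfrb had no entry. The 250 bases before the transcript start are shown for 4 genes, because Hgf and Egfr were the ligand and the receptor with the largest difference between the groups, and because Vegfa and Pdgfra had the highest and the lowest level. They lie at chr5:16553245-16553494 (plus strand) for Hgf, chr11:16751953-16752202 (plus) for Egfr, chr17:46032378-46032627 (minus) for Vegfa and chr5:75152001-75152250 (plus) for Pdgfra. Capitals mark each match, on either strand, to the E-box CANNTG bound by myogenic factors, its form CAGCTG, the GC box GGGCGG, the TEAD site GGAATG or the AP-1 site TGANTCA.
Hgf: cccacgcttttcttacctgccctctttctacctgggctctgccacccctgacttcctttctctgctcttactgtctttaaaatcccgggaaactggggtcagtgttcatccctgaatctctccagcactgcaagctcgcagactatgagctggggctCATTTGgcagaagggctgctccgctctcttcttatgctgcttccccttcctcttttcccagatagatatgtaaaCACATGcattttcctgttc
Egfr: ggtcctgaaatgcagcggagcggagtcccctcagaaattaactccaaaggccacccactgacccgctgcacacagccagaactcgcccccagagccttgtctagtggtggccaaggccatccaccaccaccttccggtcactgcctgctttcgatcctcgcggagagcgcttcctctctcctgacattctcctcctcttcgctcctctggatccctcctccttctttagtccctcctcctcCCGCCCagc
Vegfa: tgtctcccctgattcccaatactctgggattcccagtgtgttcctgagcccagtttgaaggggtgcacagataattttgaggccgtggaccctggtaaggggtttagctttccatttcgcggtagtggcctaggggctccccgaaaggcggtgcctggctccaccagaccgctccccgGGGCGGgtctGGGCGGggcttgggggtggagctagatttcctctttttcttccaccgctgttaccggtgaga
Pdgfra: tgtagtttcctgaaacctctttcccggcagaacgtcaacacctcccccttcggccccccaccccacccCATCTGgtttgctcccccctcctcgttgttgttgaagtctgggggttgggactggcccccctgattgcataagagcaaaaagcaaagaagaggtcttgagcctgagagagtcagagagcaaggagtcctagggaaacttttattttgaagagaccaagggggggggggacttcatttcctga
Hgf held 2 E-boxes that start 93 and 19 bases before the transcript start, Egfr held 1 GC box at 9 bases, Vegfa held 2 GC boxes at 72 and 62 bases, and Pdgfra held 1 E-box at 182 bases. An E-box was present in 4 of the 8 promoters, against 66.2% of 32851 RefSeq promoters of the same length, and a GC box in 6 of 8, against 32.7%. CAGCTG and GGAATG were in 0 of the 8 (13% and 12.6% of all promoters), and TGANTCA was in 1, that of Met (6.75% of all). CAGCTG is a special case of CANNTG, and a match describes the letters only.

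In si-SCR cells, Vegfa was the most abundant of the 10 and Pdgfra the least. The vascular growth factor Vegfa had a mean of 27.4 ± 2.50 RPKM (SD, n = 2), higher than 82.7% of the rows, and Pdgfra had 0.653 ± 0.0977 RPKM, higher than 7.40%. The order was Vegfa, Pdgfrb, Met, Pdgfa, Fgfr1, Egfr, Hgf, Fgf2, Fgfr4 and Pdgfra. Neighbours in this order did not overlap in their 2 samples, apart from Pdgfa with Fgfr1 and Fgf2 with Fgfr4. In si-SMaRT cells the first 3 places were the same genes, with overlapping samples, Fgfr1 stood before Pdgfa and Fgfr4 before Fgf2. The receptor with the highest mean was thus Pdgfrb in both groups, followed by Met.

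**Figure D1:**
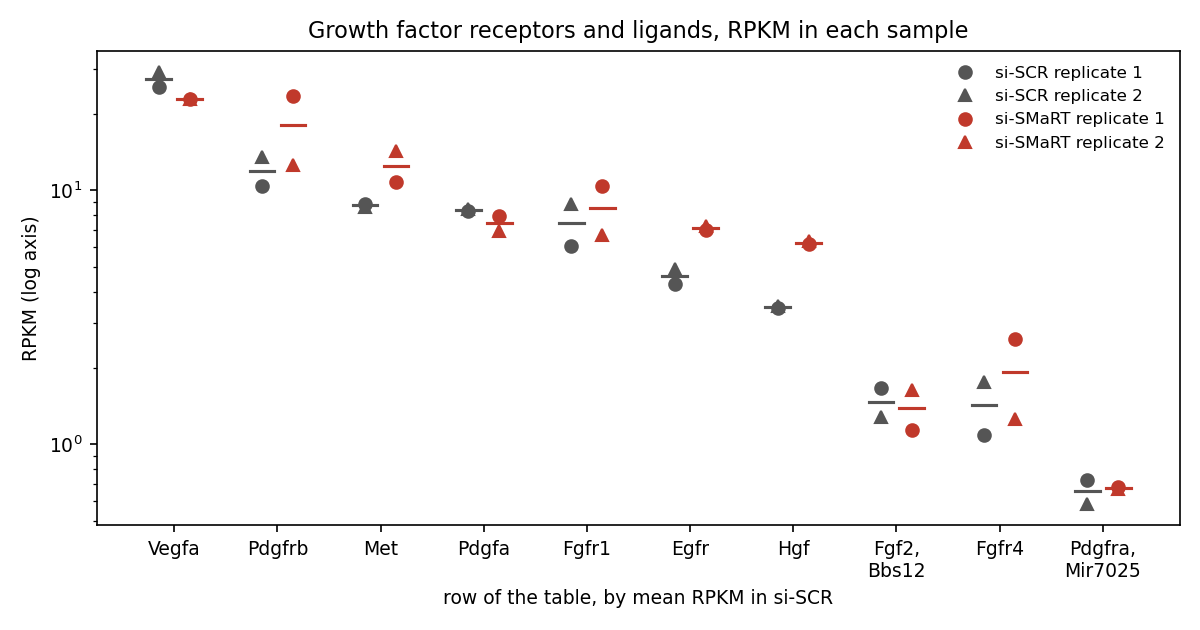
RPKM on a log axis of the 10 genes in the 2 si-SCR samples (grey) and the 2 si-SMaRT samples (red), with circles for replicate 1, triangles for replicate 2 and a horizontal line for the group mean. Hgf, Egfr and Met were higher in both si-SMaRT samples than in both si-SCR samples, Vegfa and Pdgfa were lower, and the samples of the other 5 genes overlapped.

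None of the 10 genes passed the test between si-SMaRT and si-SCR, while 0.505% of the 11086 rows tested did (20 higher and 36 lower; limma, Benjamini-Hochberg, adjusted p under 0.05). Without adjustment 2 of the 10, Egfr and Hgf, had a p under 0.05, against 9.09% of all rows, and voom on the reads worked out from the RPKM also called 0 of the 10 (0.974% of all rows). The receptors Egfr and Met and the ligand Hgf were higher in both si-SMaRT samples than in both si-SCR samples (3 of 10, against 20.2% of all rows), and the ligands Pdgfa and Vegfa were lower (2 of 10, against 20.4%). Shares this near the background are no result about the 10 genes. The median log2 fold change was 0.27 over the 10 genes and 0.02 over all rows tested, and the former was 0.14 without si-SCR 1, 0.47 without si-SCR 2 and 0.06 without si-SMaRT 1.

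**Figure D2:**
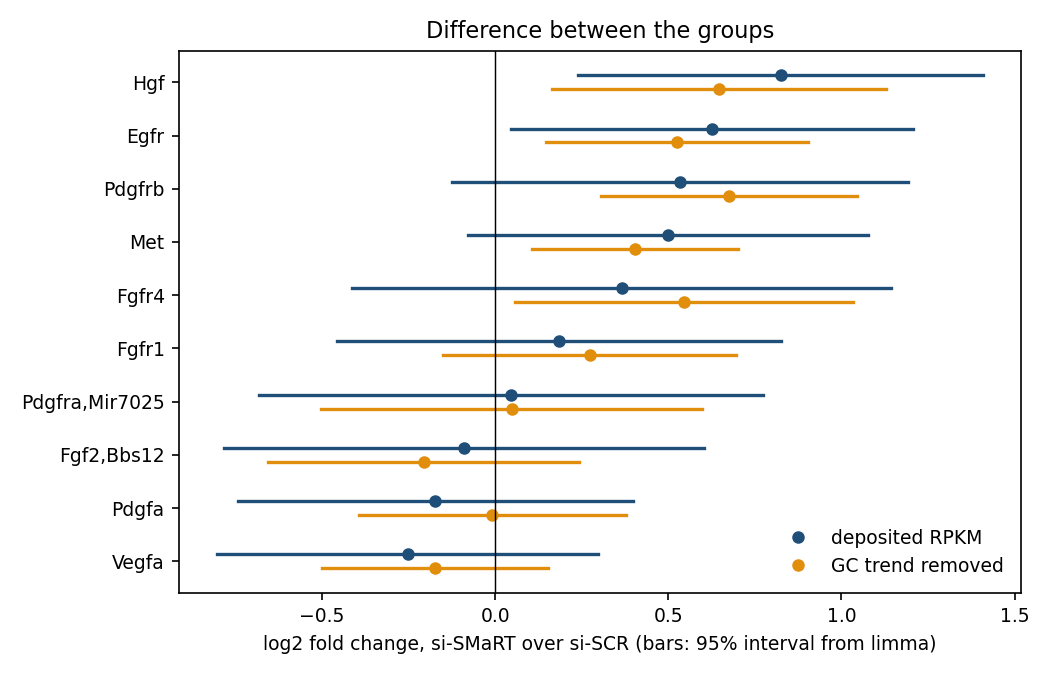
Log2 fold change of si-SMaRT over si-SCR for each gene, with the 95% interval from limma as a bar, for the deposited RPKM (blue) and with the GC trend taken out (orange). The blue intervals of Hgf and Egfr and the orange intervals of Hgf, Pdgfrb, Fgfr4, Egfr and Met lie wholly above 0, and after adjustment for all rows Pdgfrb alone passed the test, in the orange set with an adjusted p of 0.0460.

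Among the receptors, Egfr (chr11:16752203-16918158, plus strand), which binds EGF, amphiregulin and related ligands, had 4.28 and 4.90 RPKM in si-SCR 1 and 2 and 7.01 and 7.25 RPKM in si-SMaRT 1 and 2. The groups did not overlap, and the samples of each group were close to each other. The log2 fold change was 0.63 (95% interval 0.05 to 1.21), with an adjusted p of 0.490 (limma). Met (chr6:17463800-17573980, plus strand), the receptor of HGF, had 8.87 and 8.63 RPKM in si-SCR and 10.8 and 14.3 RPKM in si-SMaRT. The si-SCR samples nearly coincided and both si-SMaRT samples were above them, with si-SMaRT 2 highest. Its log2 fold change was 0.50 (-0.08 to 1.08), with an adjusted p of 0.617 (limma). When si-SMaRT 1 was left out, both receptors passed the test, with adjusted p of 0.0225 for Egfr and 0.00675 for Met, but so did 26.2% of all rows. When any other sample was left out neither did.

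Pdgfrb (chr18:61045150-61085061, plus strand), the receptor of PDGF-BB, had 10.4 and 13.6 RPKM in si-SCR and 23.6 and 12.6 RPKM in si-SMaRT. The groups overlapped, because si-SMaRT 1 was the highest of the 4 samples and si-SMaRT 2 lay between the si-SCR samples. The log2 fold change was 0.53 (-0.12 to 1.19), with an adjusted p of 0.651 (limma), and it was 0.99 with an adjusted p of 0.000171 without si-SMaRT 2, where 8.49% of all rows passed, but 0.08 without si-SMaRT 1. Col1a1 and Col3a1, the 2 of 6 fibroblast markers with a row (Thy1, Dpt, Lum and Tcf21 had none), summed to 312.3 and 353.0 RPKM in si-SCR and 586.1 and 353.7 RPKM in si-SMaRT. They too were highest in si-SMaRT 1, and their part in the level of Pdgfrb was not tested. Pdgfra (chr5:75152292-75198215, plus strand), the receptor that also binds PDGF-AA and marks fibro-adipogenic cells in muscle, had 0.723 and 0.584 RPKM in si-SCR and 0.679 and 0.670 RPKM in si-SMaRT, from 52 to 65 reads a sample. Both si-SMaRT samples lay between the si-SCR samples, and the log2 fold change was 0.05 (-0.68 to 0.77). Its row is joined with Mir7025, a miRNA gene inside Pdgfra on the same strand.

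The FGF receptors Fgfr1 (chr8:25513654-25575718, plus strand), the main FGF receptor of cycling myoblasts, and Fgfr4 (chr13:55152640-55168759, plus strand), typical of muscle precursors and regenerating muscle, varied more within the groups than between them. Fgfr1 had 6.04 and 8.83 RPKM in si-SCR and 10.4 and 6.66 RPKM in si-SMaRT, which gave a log2 fold change of 0.18 (-0.46 to 0.83). Fgfr4 had 1.09 and 1.76 RPKM in si-SCR and 2.60 and 1.26 RPKM in si-SMaRT, from 49 to 104 reads a sample, which gave a log2 fold change of 0.37 (-0.41 to 1.14). In both genes, as in Pdgfrb, si-SCR 2 was above si-SCR 1 and si-SMaRT 2 below si-SMaRT 1. Their direction was not stable: the log2 fold change of Fgfr1 was -0.09 without si-SCR 1 and -0.13 without si-SMaRT 1. That of Fgfr4 was -0.13 without si-SMaRT 1 and 0.86 without si-SMaRT 2.

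Among the ligands, Hgf (chr5:16553495-16620152, plus strand), the hepatocyte growth factor that activates Met, had the largest log2 fold change of the 10 genes on the deposited values, although Pdgfrb exceeded it with the GC trend taken out and, like Fgfr4, without si-SMaRT 2. It was at 3.44 and 3.52 RPKM in si-SCR 1 and 2, from 120 and 137 reads, and at 6.14 and 6.34 RPKM in si-SMaRT 1 and 2, from 191 and 250 reads. The groups did not overlap, and the SD within them (0.0541 RPKM in si-SCR and 0.141 RPKM in si-SMaRT) was small beside the gap between the means of 3.48 and 6.24 RPKM, a ratio of 1.79. The log2 fold change was 0.82 (0.24 to 1.41), with an adjusted p of 0.278 (limma). With 1 sample left out, the log2 fold change of Hgf ranged from 0.80 to 0.85. Gm42975 and Gm43489, annotated in the class TEC of unverified transcripts, lie within the bounds of Hgf on its own strand.

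Vegfa (chr17:46016993-46032369, minus strand), which acts on endothelial cells, was at 25.7 and 29.2 RPKM in si-SCR and 23.0 and 22.9 RPKM in si-SMaRT. The si-SMaRT samples nearly coincided below the si-SCR samples, and the log2 fold change was -0.25 (-0.80 to 0.30), with an adjusted p of 0.846 (limma). Pdgfa (chr5:138976014-138997370, minus strand), whose AA dimer binds Pdgfra, was at 8.29 and 8.44 RPKM in si-SCR and 7.95 and 6.90 RPKM in si-SMaRT. Both si-SMaRT samples were below the si-SCR samples, and the log2 fold change was -0.17 (-0.74 to 0.40), with an adjusted p of 0.904 (limma). Fgf2 (chr3:37348346-37410108, plus strand), the basic fibroblast growth factor used to keep satellite cells in culture, shares its row with Bbs12, so the values are those of both genes together. The joined row was at 1.67 and 1.28 RPKM in si-SCR and 1.14 and 1.64 RPKM in si-SMaRT, and the groups overlapped. Its log2 fold change was -0.09 (-0.78 to 0.60), and it was 0.09 without si-SCR 1 and 0.16 without si-SMaRT 1. Egfr, Fgf2, Fgfr1, Pdgfa and Pdgfra each overlap an annotated transcript on the opposite strand, whose reads cannot be told apart if counting ignored strand, a setting not given in the sources used here.

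Ratios of levels within a sample were taken for 6 pairs of a ligand and a receptor or of receptors of 1 family. The ratio of Hgf to Met was 0.388 and 0.408 in si-SCR and 0.570 and 0.444 in si-SMaRT, higher in both si-SMaRT samples. The ratio of Pdgfa to Pdgfrb was 0.798 and 0.622 in si-SCR and 0.337 and 0.549 in si-SMaRT, lower in both. With 2 samples against 2 an exact permutation test cannot give a two-sided p below 0.333, so these ratios are given as a description. The ratio of Pdgfra to Pdgfrb (0.0288 to 0.0696 over the 4 samples), of Fgfr4 to Fgfr1 (0.181 to 0.251), of Pdgfa to Pdgfra (10.3 to 14.4) and of the Fgf2 row to Fgfr1 (0.110 to 0.277) overlapped between the groups. Per length, Pdgfrb RNA thus exceeded Pdgfra RNA and Fgfr1 RNA exceeded Fgfr4 RNA in all 4 samples.

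The differences within the si-SMaRT group followed the base composition of the genes. Over 10457 rows the Spearman correlation between the GC content of the exons and the log2 difference of si-SMaRT 2 from si-SMaRT 1 was -0.845, and over the 10 genes it was -0.867. The same correlations for si-SCR 2 and 1 were 0.355 and 0.564. These are correlations across genes within 1 pair of libraries, and genes are not independent replicates. Fgfr4, with 58.6% GC the richest of the 10, was 0.99 lower on the log2 scale in si-SMaRT 2, and Pdgfrb (55.0%) and Fgfr1 (52.5%) were 0.90 and 0.63 lower, whereas Met (44.6%) and the Fgf2 row (43.2%) were 0.40 and 0.50 higher. Other genes differed less between the si-SMaRT samples than the median row of like GC content. Hgf, with 38.6% GC, differed by 0.05 where the median row with 38 to 42% GC was 0.62 higher in si-SMaRT 2. Egfr differed by 0.05 against a median of 0.38, Pdgfa by -0.20 against -0.61 and Vegfa by -0.01 against -0.27.

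**Figure D3:**
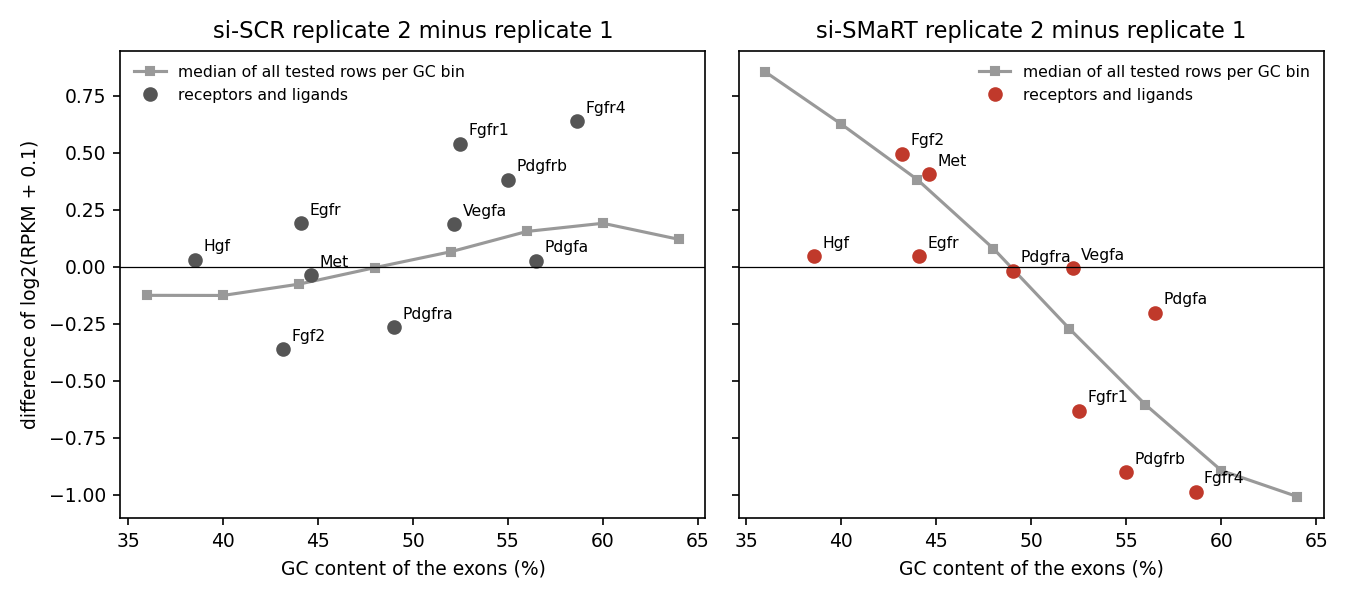
Difference of log2(RPKM + 0.1) between replicate 2 and replicate 1 of si-SCR (left) and si-SMaRT (right) against the GC content of the exons, for the 10 genes (labelled points) and as the median of all tested rows in bins of GC content (line). In si-SMaRT the line falls from 0.85 to -1.01, with Fgfr4, Pdgfrb and Fgfr1 at the lower right, whereas Hgf and Egfr stay near 0.

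A loess fit was used to take the GC trend out of every sample, and 5.67% of the 10457 rows then passed the test, among them 1 of the 10 genes. This was Pdgfrb, with a log2 fold change of 0.68 and an adjusted p of 0.0460 (limma). Its difference between the si-SMaRT samples shrank from -0.90 to -0.36, and its groups no longer overlapped. Fgfr4, Egfr, Met and Hgf also stood higher in both si-SMaRT samples after the removal, as did 29.4% of all rows, with log2 fold changes of 0.55, 0.53, 0.40 and 0.65 and adjusted p of 0.157, 0.0982, 0.102 and 0.106. The Fgf2 row now stood lower in both, as did 27.8% of all rows, whereas the samples of Pdgfa and Vegfa now overlapped. For Hgf and Egfr the removal widened the gap between the si-SMaRT samples, from 0.05 to -0.69 and from 0.05 to -0.32. With the replicate number added as a block to the same fit, 0 of the 10 and 2.48% of all rows passed.

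The pattern of Hgf over the 4 samples was nearest to that of Ppap2b (0.0306 as the root mean square difference of centred log2 values), which encodes a lipid phosphate phosphatase, followed by Ermap (0.0415) and Rbl1 (0.0441), the latter encoding the pocket protein p107. Ppap2b was at 3.25 and 3.52 RPKM in si-SCR and 5.86 and 6.06 RPKM in si-SMaRT, and 45 rows lay within 0.1 of Hgf by this measure. Within the 10 genes, Egfr and Hgf were each other's nearest (0.113), as were Pdgfa and Vegfa (0.0974) and Fgfr4 and Pdgfrb (0.128). Fgfr1 was nearest to Fgfr4 (0.159), Met to Egfr (0.163), Pdgfra to Pdgfa (0.164) and the Fgf2 row to Pdgfra (0.197). These are descriptions over 4 samples that share libraries and depth.

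Beyond the 10 genes, 118 names of ligands, co-receptors, signal transducers and targets of the same pathways were listed, of which 86 had a row and 81 were tested. Of the 81, 1 passed the test, 31 were higher in both si-SMaRT samples and 14 were lower in both, with a median log2 fold change of 0.14. Over all rows the shares were 0.505% passing, 20.2% higher and 20.4% lower, and the counts of the single lists are to be read against these. The 1 gene was Ccnd1, which encodes cyclin D1, the partner of Cdk4 in G1 and a target of ERK signalling. Ccnd1 was at 3.96 and 3.27 RPKM in si-SCR and 9.17 and 9.60 RPKM in si-SMaRT, and the log2 fold change was 1.36 with an adjusted p of 0.0356 (limma). It rose in both si-SMaRT samples, and the adjusted p was 0.764 without si-SCR 1 and 1.00 without si-SCR 2. It was 0.0531 without the filter on low values, 0.0619 after quantile normalization and 0.0591 with the replicate block.

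Of the 12 ERK-responsive genes, 5 were higher in both si-SMaRT samples (20.2% of all rows) and 2 were lower (20.4%). Their median log2 fold change was -0.09, but 0.10 with the GC trend taken out or without si-SCR 2, 0.05 without si-SMaRT 1 and 0.18 without si-SMaRT 2. Fos, an immediate early gene, was at 2.18 and 2.80 RPKM in si-SCR and 6.21 and 4.87 RPKM in si-SMaRT, and the log2 fold change was 1.12 with an adjusted p of 0.123 (limma). At the other end, Etv1 had a log2 fold change of -0.42 and Ier2 of -0.33. The list of feedback inhibitors also held other regulators of these pathways, namely Nf1, Rasa1, Cbl, Cblb, Sulf1 and Sulf2. Of the 17 genes of this list tested, 9 were higher in both si-SMaRT samples (20.2% of all rows) and 1, Sulf1, was lower (20.4%). Their median of 0.34 was 0.13 without si-SCR 1 and 0.55 without si-SCR 2. Sulf2, an extracellular sulfatase that trims the heparan sulfate on which FGF and HGF bind, was at 8.31 and 10.2 RPKM in si-SCR and 22.1 and 15.4 RPKM in si-SMaRT, and its log2 fold change was 0.99 with an adjusted p of 0.163. The Sprouty genes differed from each other, with log2 fold changes of 0.57 for Spry2 and -0.20 for Spry1.

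The 22 adaptors and members of the Ras-ERK cascade were all tested, and 3 were higher and 7 lower in both si-SMaRT samples (20.2% and 20.4% of all rows), with a median of -0.05. The lowest were the ERK-activated kinase Rps6ka1, at 1.69 and 1.79 RPKM in si-SCR and 0.915 and 0.443 RPKM in si-SMaRT (log2 fold change -1.31, adjusted p 0.149), and the scaffold Ksr1 (-0.91, adjusted p 0.329). The highest were the Ras exchange factor Sos1 (0.48) and the kinase Braf (0.45). With 1 sample left out, Rps6ka1 ranged from -1.76 to -0.86, Ksr1 from -1.31 to -0.51, Sos1 from 0.17 to 0.79 and Braf from 0.23 to 0.67. None of the 22 passed the test on the deposited values.

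**Figure D4:**
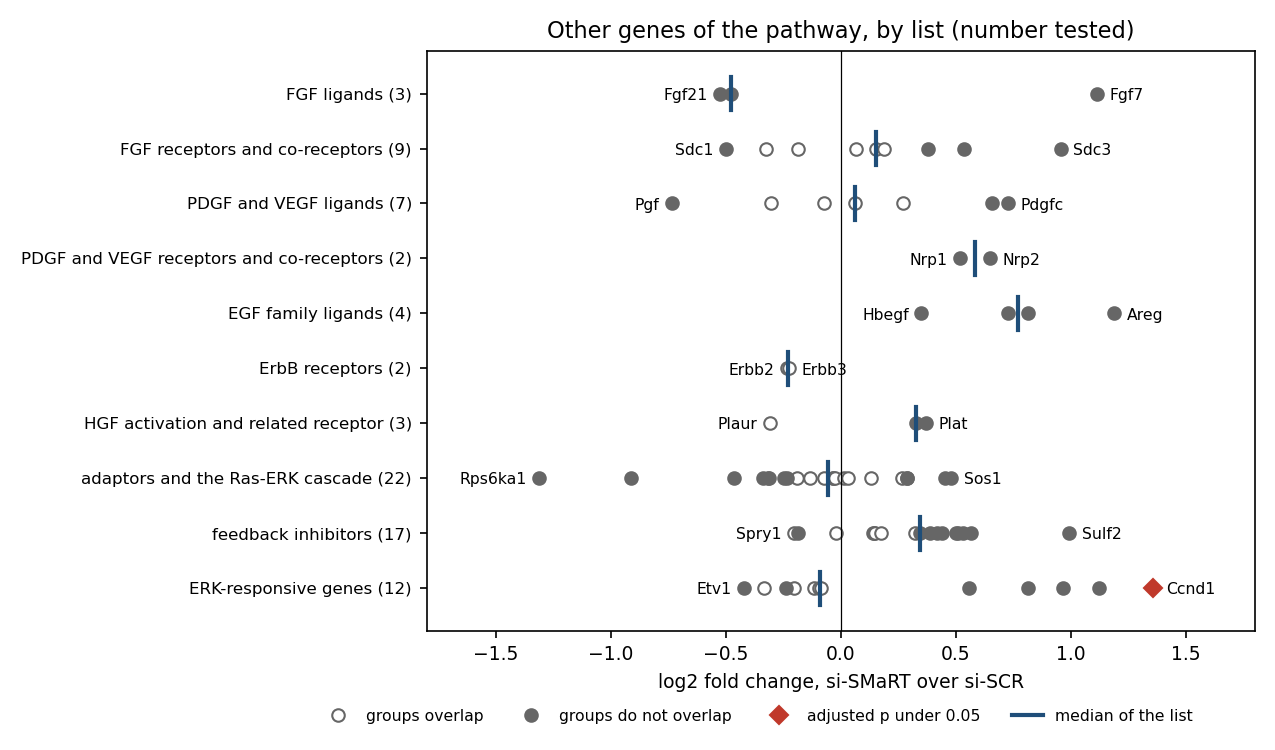
Log2 fold change of si-SMaRT over si-SCR for the tested genes of each pathway list, with filled points where the groups do not overlap, open points where they do, a red diamond for an adjusted p under 0.05 and a blue line at the median of the list. Ccnd1 is the only diamond, and the Ras-ERK cascade spreads to both sides. All 4 tested EGF family ligands lie to the right of 0, among them Areg, whose row may have been kept through si-SMaRT alone.

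Of 11 EGF family ligands, 6 had a row and 4 were above the filter. These 4 were higher in both si-SMaRT samples, as were 20.2% of all rows, with a median log2 fold change of 0.77. Egf and Btc, which had a row below the filter, overlapped between the groups. Without the filter the median over 6 genes was 0.54, and no gene of the list reached a mean RPKM of 5. Areg, which encodes amphiregulin, was at 0.527 and 0.649 RPKM in si-SCR and 1.18 and 1.81 RPKM in si-SMaRT (log2 fold change 1.19, adjusted p 0.177, limma). It rests on 8 and 11 reads in si-SCR and 16 and 31 in si-SMaRT. By the authors' filter on CPM its row may therefore have been kept through si-SMaRT alone, and the count of 4 and the median include it. Nrg1 had 0.81, Ereg 0.73 and Hbegf 0.35. The receptors Erbb2 and Erbb3 overlapped between the groups, with log2 fold changes of -0.23 and -0.23, and Erbb4 had no row.

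Of 16 genes of the FGF family other than Fgf2, not all of which encode receptor ligands, 3 had a row. Fgf7, the keratinocyte growth factor made by mesenchymal cells, was at 1.85 and 2.20 RPKM in si-SCR and 3.49 and 5.76 RPKM in si-SMaRT (log2 fold change 1.12, adjusted p 0.163). Fgf21, a hormone-like FGF that stressed muscle secretes, was the most abundant, at 128 and 142 RPKM in si-SCR and 110 and 79.9 RPKM in si-SMaRT (log2 fold change -0.52), and Fgf11 had -0.48. Among the 9 tested genes for FGF receptors, co-receptors and the adaptor Frs2, the median was 0.15, the value of the Fgfr2 row, which is joined with Ctbp2. The median was -0.07 at a mean RPKM of at least 5, 0.06 without si-SCR 1 and 0.32 without si-SMaRT 2. The heparan sulfate carriers Sdc3 and Sdc4 were at the upper end with 0.96 and 0.54, while Sdc1 and Gpc1 were at the lower end with -0.50 and -0.33. With 1 sample left out, Sdc3 ranged from 0.47 to 1.44, Sdc4 from 0.35 to 0.73 and Sdc1 from -0.81 to -0.19, and Gpc1 changed sign.

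The 7 tested PDGF and VEGF ligands had a median of 0.06, from Pgf at -0.73 and Pdgfb at -0.30 to Figf (the same gene as the listed Vegfd) at 0.66 and Pdgfc at 0.73. Figf had a mean of 0.391 RPKM in si-SCR and 0.671 RPKM in si-SMaRT, so it passed the filter of 0.5 only through si-SMaRT. It rests on 11 to 26 reads a sample, and its log2 fold change was 0.26 with a pseudocount of 1. The co-receptors Nrp1 and Nrp2, which bind VEGF, were higher in both si-SMaRT samples with log2 fold changes of 0.52 and 0.65, whereas the VEGF receptor genes Kdr and Flt4 had no row and Flt1 was below the filter. Of the proteases that can activate HGF, Plau (urokinase) and Plat were at 0.33 and 0.37, and Plaur, the urokinase receptor, was at -0.31. The activators Hgfac and St14 and the protease inhibitors Spint1 and Spint2 had no row. The 10 lists were chosen with earlier results of these data known, and the genes of differentiating muscle were lower in sum in the same si-SMaRT samples, whose part in the differences of the receptors, ligands and pathway genes was not tested.

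No peak of the lnc-SMaRT pull-down (345 peaks) or of the LacZ pull-down (336 peaks) lay within the annotated bounds of any of the 10 genes, whereas 5 peaks of the lnc-SMaRT pull-down and 0 of the LacZ pull-down lay within those of lnc-SMaRT itself. Each list came from 1 library. The share of all genes that hold a peak was not worked out, so the absence of peaks is no result about the 10 genes. Lnc-SMaRT is the target of the probes.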

How the data were processed

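RNA-seq of 4 samples, 2 of si-SCR and 2 of si-SMaRT, was used, grouped by the labels. The authors deposited RPKM values. They had trimmed the reads (Trimmomatic), discarded those of rRNA and tRNA (Bowtie 2), aligned with TopHat2 to GRCm38 and Ensembl 77, discarded mitochondrial reads and run htseq-count (intersection-strict). By their wording they dropped genes whose CPM was under 1 in 2 or more samples, and they normalized by TMM. Rows such as Flt1, with 11 and 4 reads in si-SCR and 13 and 16 in si-SMaRT, were nevertheless kept, so a row may have been kept through 1 group alone. RPKM was computed by the authors with edgeR. Versions and the strand setting of the counting are not given in the sources used here. The p-value of each deposited peak was given by the authors' caller, Piranha, in bins of 200 bases, and only peak positions were used.

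Because 1 read is worth a fixed step of RPKM in each gene, the values gave the reads of all 11642 rows (tolerance 0.01 bases of gene length). The gene model set the factor common to the 4 samples for 5904 rows, and the other rows hold the smallest whole reads. Of the rows, 576 join the symbols of several genes. Library sizes after TMM were 12654120 (si-SCR 1), 14132628 (si-SCR 2), 11291255 (si-SMaRT 1) and 14312935 (si-SMaRT 2). Reads carry no molecular identifiers.

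Groups were compared with limma 3.58.1 in R 4.3.3 (lmFit and eBayes with trend) on log2(RPKM + 0.1), a scale that understates changes of low genes, over rows whose mean RPKM reached 0.5. P-values were adjusted by Benjamini-Hochberg over all of them, with a threshold of 0.05. The test was run first on simulated reads, which held no GC trend between replicates, so that run does not cover the trend seen here. GC content came from the exons of GENCODE M21 on GRCm38, and its trend in each sample was removed by loess with a span of 0.3. Gene positions are those of GENCODE M21. Python 3.11.15 with pandas 2.3.3 and numpy 2.4.6 made the other tables.

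The members and lists were chosen with earlier results of these data known. Of each pathway list, genes past the threshold and the 2 highest and 2 lowest log2 fold changes were named, as well as the 3 rows nearest to the member with the largest difference. Alternatives were pseudocounts of 1 and 0.01, no filter or a minimum mean RPKM of 5, quantile normalization, a prior variance without trend, the replicate block, the GC trend taken out, voom on the reads and each sample left out. A crossed block was added after seeing the data.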

Additional observations from a re-analysis of the deposited data

How the results depend on the processing

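The direction of the log2 fold changes of the 10 genes, lnc-SMaRT and the 34 named pathway genes did not change under the alternatives with all 4 samples for which each has a value (Figf has no GC content, low genes drop out at a mean RPKM of at least 5, and the crossed block was used for counts of calls). With 0 of the 10 genes, 1 pathway gene and 56 of all rows past the threshold in the main analysis, the counts were 0, 0 and 37 after quantile normalization, 0 pathway genes without the filter on low values, 0, 1 and 108 with voom, 1, 12 and 593 with the GC trend removed, and 0, 9 and 259 with the GC trend removed together with the replicate block. With the replicate block alone they were 0, 0 and 96. The deviations of same-numbered samples from their group means correlated at -0.362, on values with the GC trend still in. That trend ran in opposite directions within the groups (Spearman 0.355 in si-SCR and -0.845 in si-SMaRT), so the correlation cannot tell whether the numbers pair the samples. The main fit used no block. With the crossed replicate block, added after the data were seen, the counts were 1, 11 and 487. Ccnd1 had an adjusted p of 0.0591 with the replicate block, at a log2 fold change of 1.36. The cause of these shifts was not tested. Leaving out each sample in turn gave between 0 and 3 of the 10 genes, between 0 and 30 pathway genes and between 24 and 2908 of all rows, the last without si-SMaRT 1 (941 without si-SMaRT 2), where the lone sample is assumed to vary like the si-SCR pair. Ccnd1 ranged from 1.23 to 1.49 on the log2 scale. The direction turned for Fgfr1 (-0.13 to 0.50), Fgfr4 (-0.13 to 0.86), Pdgfra (-0.087 to 0.18), the Fgf2 row (-0.34 to 0.16), Gpc1 (-0.80 to 0.15), Pdgfb (-0.73 to 0.13), Erbb2 (-0.67 to 0.21), Erbb3 (-0.45 to 0.0030), Plaur (-0.64 to 0.024) and Ier2 (-0.75 to 0.089). The range was 0.80 to 0.85 for Hgf, 0.53 to 0.72 for Egfr, 0.30 to 0.70 for Met, 0.08 to 0.99 for Pdgfrb, -0.27 to -0.07 for Pdgfa and -0.34 to -0.16 for Vegfa. Depth limits Fgfr4, Pdgfra and the Fgf2 row, which rest on 104 reads or fewer a sample.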

Other observations

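With the GC trend removed, 12 of 80 pathway genes passed the test, 10 higher and 2 lower (5.67% of all rows passed). The higher ones included Fos (log2 fold change 1.19, adjusted p 0.00522, limma), Sulf2 (1.14, adjusted p 0.00265), Sdc3 (1.13, adjusted p 0.0170), Fgf7 (0.94, adjusted p 0.0208), Areg (1.18, adjusted p 0.0313) and Pdgfc (0.68, adjusted p 0.0260), beside Ccnd1 (1.42, adjusted p 0.00265). The lower ones were Rps6ka1 (-1.13, adjusted p 0.0196) and Ksr1 (-0.76, adjusted p 0.0388). Areg is counted among the higher ones, although its row may have been kept through si-SMaRT alone. With the replicate block in the same fit 9 of the 12 passed, where 2.48% of all rows did. Pdgfc (adjusted p 0.0640, limma), Ksr1 (0.0835) and Lrig1 (0.103) did not.

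The other 3 that rose in that fit were chosen for mention after their values were seen. Myc, the growth-promoting transcription factor, was at 4.60 and 5.22 RPKM in si-SCR and 9.86 and 7.65 RPKM in si-SMaRT, and its adjusted p was 0.294 on the deposited values and 0.00796 with the GC trend removed. Fosl1, an AP-1 subunit, was at 0.926 and 1.29 RPKM in si-SCR and 2.70 and 1.84 RPKM in si-SMaRT, and its adjusted p was 0.286 and 0.0170. Lrig1, which promotes the breakdown of ErbB receptors, was at 5.67 and 6.64 RPKM in si-SCR and 9.63 and 7.28 RPKM in si-SMaRT, and its adjusted p was 0.691 and 0.0457.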
